A study of Mus with 2 samples.

Results

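Enterocytes, the absorptive cells that line the villi of the small intestine, were compared between 2 groups of mouse ileal cells at the level of single genes. The genes described are all 3426 entries of the authors' enterocyte comparison sheet, out of 8995 genes listed in any of the 5 cell type sheets. Membership of the sheet was not chosen by fold change, while the genes named below were partly picked by their values. The study asked how loss of nociceptors, nerve cells that sense harmful stimuli, bears on the ileal epithelium. Epithelial cells of the distal ileum were sorted by flow cytometry and sequenced by inDrops, a droplet method for single-cell RNA. Nociceptor-ablated mice had the genotype Nav1.8Cre+/-DTA+/- and controls were littermates with Nav1.8Cre-/-DTA+/-. Both genotypes thus carried the diphtheria toxin A allele, and the Cre driver follows the Nav1.8 sodium channel gene, which marks most but not only nociceptors. Treatment was labelled Baseline in both. The mice were males of 8 weeks, and 3 mice were pooled for each genotype, which gave 1 sample per genotype.

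With 1 pooled sample per genotype there was no test of the difference, and values below describe these 2 pools of mice only. The sheet calls its groups 1 and 2 without naming a genotype, and no value was used to assign one. Each log2 fold change is group 1 over group 2, so a positive value means higher in group 1. Enterocyte numbers and depth by group were not stated in any source at hand, so no interval over cells could be set. Every listed gene reached 10% detection in one or both groups. The deposited laboratory sheet records 3 sub-libraries with 8500 cells for the nociceptor-ablated pool and 4 with 10000 cells for the control pool, at 38.58% and 51.44% of the sequencing pool. How far depth differed between groups 1 and 2 was not tested.

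Enterocytes take up fat, sugars, amino acids and bile acids through a brush border of microvilli that also carries digestive enzymes. They are born in the crypt, move up the villus and change their expression on the way, with antimicrobial genes used most in the lower villus and lipoprotein genes most towards the tip. In the distal ileum they also recover bile acids for return to the liver.

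The label fitted the markers fixed for enterocytes. Fabp6, the ileal bile acid binding protein, was detected in all cells (100%) of both groups in the authors' deposited table, and Apoa1 in 98.2% and 97.4% (groups 1 and 2). In the authors' deposited table Fabp2, the intestinal fatty acid binding protein, was found in 59.9% of group 1 cells and 49.4% of group 2 cells. Its shares in the authors' deposited tables were 17.9% and 20% of stem cells, but 46.2% and 49% of goblet cells. Fabp2 thus set enterocytes apart from stem cells more than from goblet cells. Alpi, the intestinal alkaline phosphatase, was found in 38.1% of group 1 cells and 27.5% of group 2 cells in the authors' deposited table, against 14.9% and 7.1% of goblet cells, and was not listed in the stem cell sheet. Fabp6 and Apoa1 did not mark this cell type alone: the authors' deposited table gave Fabp6 at least 99.5% and Apoa1 at least 82.4% detection in each group of every other sheet. Free RNA in the droplets was not separated from these shares. Of 94 marker genes of lymphocytes, myeloid cells, stroma, neurons, glia and red cells, 0 were listed, where each would have needed 10% detection in one group.

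Most differences were small. The middle of all fold changes was -0.03, and the central 50% of genes lay between -0.07 and -0.01. A log2 fold change of at least 0.25 in either direction was used as the limit for a large difference. It was passed by 7 genes higher in group 1 (0.204% of all) and by 53 genes lower in group 1 (1.55%). At a limit of 0.15 the counts were 33 (0.963%) and 212 (6.19%). Only 21.4% of genes were above 0, so gene groups are set against the median of all genes, which splits them 50% each way. Spread grew with detection: all genes detected in under 20% of cells on average had a central range from -0.05 to -0.01, while those detected in 95% or more ranged from -0.15 to 0.14. Detection shares leaned the same way, being lower in group 1 for 72.3% of genes and higher for 26.5%. The median share was 17.1% in group 1 and 18.7% in group 2.

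**Figure D1:**
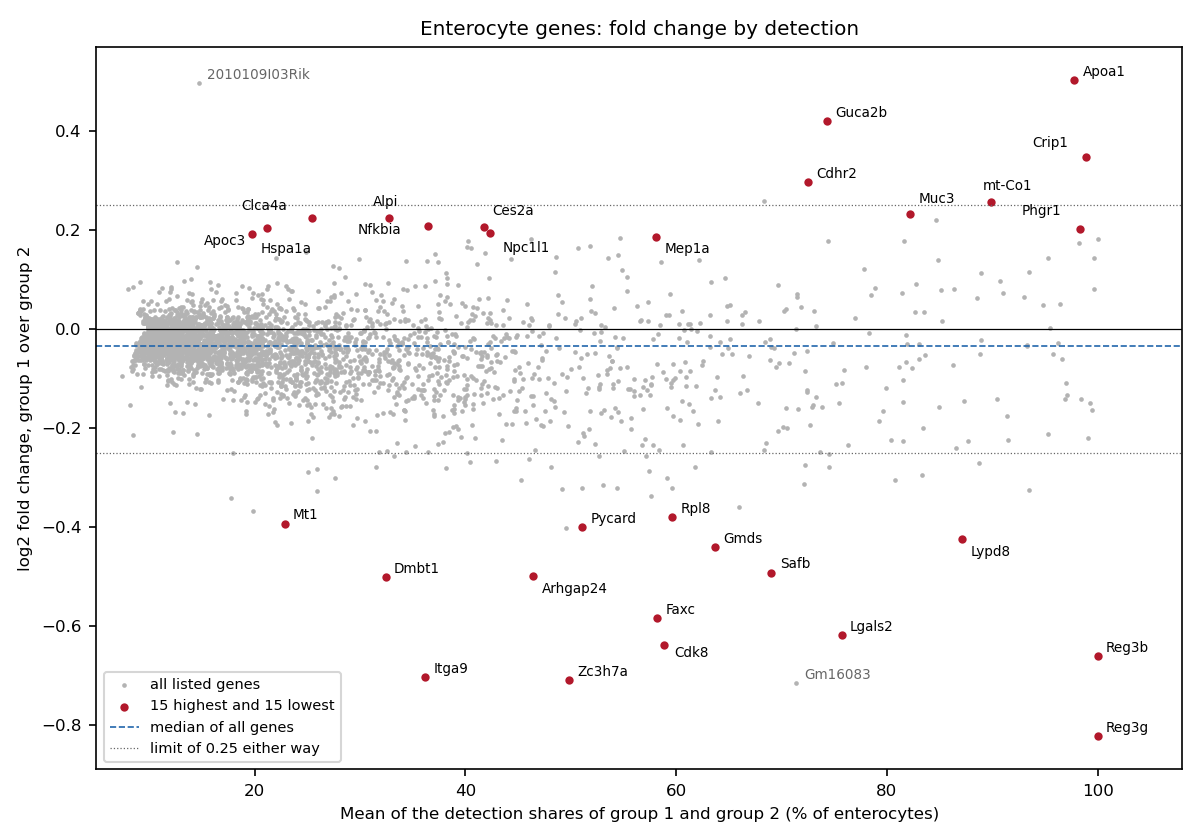
Each point is 1 gene of the enterocyte sheet, with the mean of its detection shares in groups 1 and 2 (percent of cells) on the x axis and its deposited log2 fold change (group 1 over group 2) on the y axis. The 15 highest and 15 lowest genes at or above the median detection are red and named; 53 genes lie at or under -0.25 and 7 at or above 0.25.

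Several of the largest differences were in abundant transcripts. Among the 18 genes found in 95% or more of the cells in each group, 2 passed the limit on the high side and 2 on the low side, while detection had little room to differ. Apoa1, the gene of the main protein of high-density lipoprotein (chr9:46228630-46230469, mm10, protein-coding), stood highest at 0.50 in the authors' deposited table. Crip1, a LIM domain protein of intestinal epithelium (chr12:113152012-113153879), was at 0.35 in the authors' deposited table. Reg3g (chr6:78466269-78468874) and Reg3b (chr6:78370885-78373466), secreted lectins that bind bacterial walls, stood at -0.82 and -0.66 in the authors' deposited table, both at 100% detection. The remaining high genes past the limit in the authors' deposited table were 2010109I03Rik (0.50), Guca2b (0.42), Cdhr2 (0.30), the long noncoding RNA 4933405D12Rik (0.26) and mt-Co1 (0.26). Of these, 2010109I03Rik (chr15:74878336-74881704) was detected in 19.5% of group 1 cells and 9.9% of group 2 cells in the authors' deposited table, the lowest detection among the 7. It reached the 10% detection of listed genes only in group 1, so its listing depended on the group where it is high. With at least 25% detection in both groups, 6 genes passed the limit on the high side and 43 on the low side.

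Genes for lipid absorption lay on both sides of the median of all genes, with Apoa1 and Apoc3 the highest. Of 10 genes for assembly of chylomicrons, the particles that carry dietary fat into lymph, 9 were listed, and 6 lay above the median of all genes, with a list median of 0.01. Apoc3, an inhibitor of lipoprotein clearance, was detected in 27.0% of group 1 cells and 15.3% of group 2 cells, at 0.20 on the fold change scale, in the authors' deposited table. Apob, the structural protein of the chylomicron, was found in 58.0% of group 1 cells and 51.8% of group 2 cells at 0.12 in the authors' deposited table. The lipid loader Mttp was level at -0.0031 in the authors' deposited table, and Tm6sf2 (-0.14) and Apoc2 (-0.15), the cofactor of lipoprotein lipase, lay low. The apolipoproteins of the list thus lay on both sides of 0.

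Uptake and esterification of fatty acids showed the same mixture. Of 24 such genes 16 were listed, 9 above the median of all genes, with a list median of -0.01. High members in the authors' deposited table were Fabp2 (0.18), the fatty acid transporter Slc27a4 (0.13, in 61.9% of group 1 cells and 55.3% of group 2 cells) and the lipid droplet coat gene Plin3 (0.11). Cideb, which acts in lipoprotein lipidation, was at -0.14 in the authors' deposited table, and the triglyceride-forming enzyme genes Dgat1 and Mogat2 at -0.07 and -0.04. Sterol genes had 12 of 17 listed members above the median of all genes, and only Npc1l1, the cholesterol importer of the brush border, stood out at 0.19 in the authors' deposited table. Npc1l1 reached 47.2% detection in group 1 and 37.5% in group 2 in the authors' deposited table. Of the cholesterol synthesis genes, the authors' deposited table had Hmgcs1 at 0.08 and Fdft1 at -0.03.

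Bile acid recovery depends on an apical importer, a cytosolic carrier and a basolateral exporter. The carrier Fabp6 was at 0.18 in the authors' deposited table. The importer Slc10a2 was nearly level at 0.02, with detection in 52.1% of group 1 cells and 48.9% of group 2 cells, in the authors' deposited table. Both exporter subunits Slc51a and Slc51b stood at -0.06 and 0.01 in the authors' deposited table. Nr1h4, the bile acid receptor that controls several of these genes, was at -0.12 and was found in 35.6% of group 1 cells and 40.3% of group 2 cells in the authors' deposited table. With Abcc2, 6 of 12 genes were listed and 4 lay above the median of all genes. Fabp6 was thus the member furthest from 0 on the high side and Nr1h4 the furthest on the low side.

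Most brush border genes lay on the higher side. Of 26 genes of microvillus structure and adhesion, 24 were listed, 20 of them above the median of all genes, with a list median of 0.04. Against genes of like detection 23 of the 24 were higher, while the same comparison narrowed several of the low lists, as given at the end. Cdhr2, a protocadherin that links neighbouring microvilli (chr13:54701463-54736662), was detected in 76.2% of group 1 cells and 68.9% of group 2 cells at 0.30 in the authors' deposited table. Its partner Cdhr5 was at 0.07 in the authors' deposited table. The membrane mucin Muc3 was found in 85.7% of group 1 cells and 78.7% of group 2 cells at 0.23, and the scaffold gene Slc9a3r1 in 82.1% and 73.5% at 0.12, in the authors' deposited table. Core actin bundlers were closer to level in the authors' deposited table, with Pls1 at 0.07, Vil1 at 0.06 and Espn at -0.0011. Lowest in the authors' deposited table were the myosin gene Myo1d (-0.09) and the cadherin gene Cdh17 (-0.06).

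Digestive enzymes of the same membrane were the most uniform absorptive list. Of 25 hydrolase genes 19 were listed, 18 lay above the median of all genes, and the list median was 0.04. Detection was higher in group 1 for all 19 of them, where 26.5% of all genes were. That share rose with detection: 126 of 295 genes were higher at a mean detection of 40 to 60%. It was 67 of 117 at 60 to 80% and 36 of 49 at 80 to 95%. Alpi was at 0.22 and the carboxylesterase gene Ces2a at 0.21 in the authors' deposited table, and Ces2a was detected in 46.9% of group 1 cells and 36.7% of group 2 cells. The metalloprotease gene Mep1a (63.0% of group 1, 53.2% of group 2) was at 0.19 in the authors' deposited table. The 1 exception below the median of all genes was Sis, sucrase-isomaltase, at -0.05 in the authors' deposited table, although it was detected in 73.0% of group 1 cells and 69.3% of group 2 cells.

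Transporters were less uniform. Of 32 nutrient transporters 17 were listed and 10 lay above the median of all genes. The highest were Slc6a19, which imports neutral amino acids, at 0.11 (42.7% of group 1 cells and 33.7% of group 2 cells), the peptide transporter Slc15a1 at 0.08 and the glucose transporter Slc5a1 at 0.07 in the authors' deposited table. At the low end of the authors' deposited table were the mitochondrial citrate carrier Slc25a1 (-0.12), the zinc transporter Slc39a5 (-0.09) and the cystine transporter subunit Slc7a9 (-0.08). None of the 17 passed the limit.

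The guanylins, peptides that drive fluid and salt secretion through the receptor guanylate cyclase C, were both high. Guca2b, the uroguanylin precursor (chr4:119656601-119658945), was detected in 81.3% of group 1 enterocytes and 67.3% of group 2 enterocytes at 0.42 in the authors' deposited table. Guca2a, the guanylin precursor, was detected in 79.3% of group 1 cells and 69.5% of group 2 cells at 0.18 in the authors' deposited table. Their receptor Gucy2c was at -0.04 in the authors' deposited table. Other genes of ion handling lay on both sides of 0 in the authors' deposited table: Clca4a, of the calcium-activated chloride channel accessory family, was at 0.22, while the carbonic anhydrase gene Car4 was at -0.25 and the sodium pump subunit gene Atp1b1 at -0.13. The list as a whole had 9 of 15 members above the median of all genes.

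Lower villus genes, among them several antimicrobial ones, were low in group 1. All 12 listed members of a list of lower villus genes lay below the median of all genes, with a list median of -0.24. Their highest member, Il18, was at -0.05 in the authors' deposited table, so none reached the median of all genes. After Reg3g and Reg3b came Lgals2, a galectin (-0.62), Dmbt1, a mucosal scavenger receptor (-0.50), and Lypd8, which binds bacterial flagella (-0.42), in the authors' deposited table. Detection of Dmbt1 was 24.9% in group 1 and 40% in group 2, and that of Lgals2 68.9% and 82.5%, in the authors' deposited table. Further members in the authors' deposited table were Plac8 (-0.31), the chemokine gene Ccl25 (-0.18), the lectin gene Reg3a (-0.15), Pigr, the carrier of secretory antibody (-0.14), and the inflammasome gene Nlrp6 (-0.05). The list was written with the values of 5 of its members known, so its count and its median are no independent evidence. The other 7 members had a median of -0.14, and 7 of 7 were detected less often in group 1, where 72.3% of all genes were. They too were chosen with earlier results of these data known, so they are no independent evidence either.

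The genes of the mid villus and of the tip lay higher. The mid-villus list had 7 of 10 members above the median of all genes and a list median of 0.03. The tip list had 9 of 12 above and a list median of 0.07. Beside Apoa1, the tip genes Creb3l3, a regulator of lipid genes (16.3% of group 1, 8.9% of group 2), Pmp22 (44.4% and 32.2%) and Krt20 (92.9% and 88.6%) stood at 0.13, 0.10 and 0.10 in the authors' deposited table. Creb3l3 reached the 10% detection of listed genes only in group 1, so its listing depended on the group where it is high. The tip gene Fos (-0.11), the cell cycle inhibitor gene Cdkn1a (-0.10) and the cornified envelope gene Sprr2a1 (-0.13) lay low in the authors' deposited table. By fold change the order of the 3 list medians followed the villus from base to tip, but the ranges of all 3 lists overlapped. Which of the mid and tip lists lay higher depended on the setting. By difference in detection, the mid list lay 6 points above all genes and the tip list 3.55 points. With genes under 25% detection in either group left out, the mid list lay 0.092 above the median of the rest. The tip list then lay 0.090 above it. The lower villus list stayed lowest in both settings, at -1.15 points and -0.37. Whether the groups held different mixtures of villus positions or differed within a position cannot be told apart from a mean over cells.

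**Figure D2:**
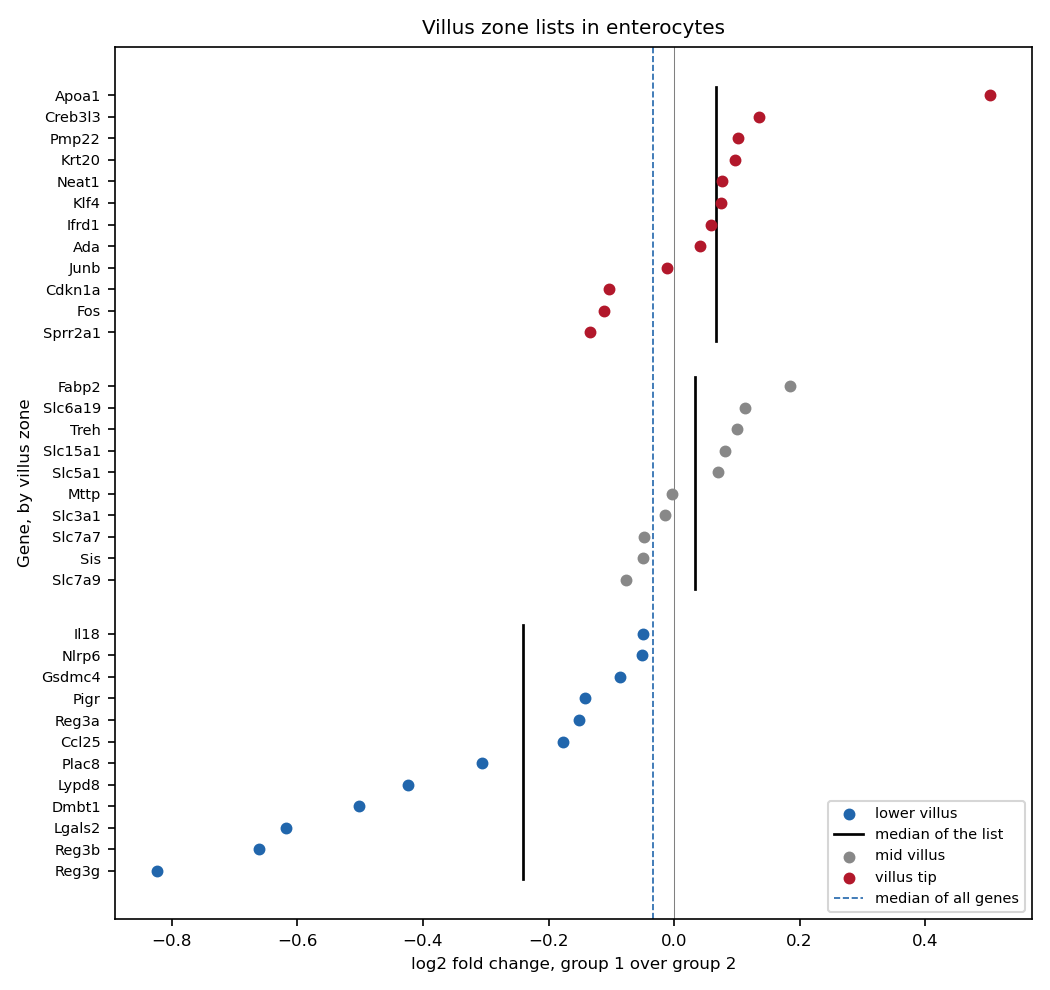
Rows are the listed genes of 3 villus zones, ordered within a zone by the deposited log2 fold change of group 1 over group 2 on the x axis; black lines are list medians and the dashed line is the median of all genes. The 12 lower villus genes all lie left of the dashed line, with a list median of -0.24, against 0.03 for the mid villus and 0.07 for the tip.

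Not every defence gene was low. Nos2, the inducible nitric oxide synthase, was detected in 46.7% of group 1 cells and 37.1% of group 2 cells at 0.15, and the galectin gene Lgals3 in 83.7% and 74.0% at 0.08, in the authors' deposited table. The oxidase gene Duox2 and its partner Duoxa2 stood at 0.06 and 0.07 in the authors' deposited table. Of 18 listed antimicrobial genes 14 lay below the median of all genes, and the detection of 8 was lower and of 8 higher in group 1. Without the genes that also stand on another list, the lower villus list included, the antimicrobial median lay 0.040 above that of all genes. The measures could point apart: the small proline-rich gene Sprr2a2 was at -0.11 in fold change but was detected in 78.2% of group 1 cells and 72.2% of group 2 cells in the authors' deposited table. Pycard, the inflammasome adaptor (45.9% of group 1, 56.3% of group 2), and the acute phase gene Saa1 stood at -0.40 and -0.32 in the authors' deposited table.

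Antigen presentation genes were mostly under the median of all genes. Class I genes had 14 of 17 listed members below it, with H2-D1 at -0.20 (69.5% of group 1, 70.7% of group 2) and the immunoproteasome gene Psmb8 at -0.15, as the authors' deposited table gives them. Class II genes, which enterocytes use to present antigen to T cells, had 5 of 7 below it and a list median of -0.04. That list lay above the zero point taken from widely detected genes, meaning 70% or more in each group (-0.07), so its side depended on the zero point. The invariant chain gene Cd74 was at -0.13 with 97.0% and 97.1% detection, and H2-Ab1 at -0.03 with 84.4% of group 1 cells and 79.4% of group 2 cells, in the authors' deposited table. Interferon-stimulated genes had 11 of 15 above the median of all genes, within narrow bounds apart from Ifi27l2b (-0.20) and Zbp1 (-0.11) in the authors' deposited table.

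Immediate early and feedback genes leaned to group 1 by small amounts. Of 19 listed immediate early genes, 16 lay above the median of all genes, with Klf6 at 0.14 (39.4% of group 1, 33.4% of group 2), Atf3 at 0.08 and Jun at 0.07 in the authors' deposited table. The 3 members below it were Fos, Egr1 (-0.09) and Ier2 (-0.04) in the authors' deposited table. Nuclear factor kappa B and cytokine genes had 8 of 10 above it. Nfkbia, the inhibitor that this factor induces against itself, was detected in 41.2% of group 1 cells and 31.8% of group 2 cells at 0.21 in the authors' deposited table. Among 15 listed heat shock genes, 9 lay above the median of all genes. The inducible genes Hspa1a (24.2% of group 1, 15.4% of group 2), Hspa1b (26.3% and 17.8%) and Hsph1 (18.7% and 12.9%) were at 0.19, 0.14 and 0.09, and the constitutive Hspa8 was at -0.19, in the authors' deposited table.

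Protein synthesis genes were low in nearly every member. Of 67 cytosolic ribosomal protein genes 62 lay below the median of all genes, and 9 passed the limit. All 67 were detected less often in group 1, where 72.3% of all genes were. The list medians were -0.16 for the large and -0.15 for the small subunit. Rpl8 was found in 54.8% of group 1 cells and 64.5% of group 2 cells at -0.38, and Rps3 in 61.9% and 70% at -0.36, in the authors' deposited table. Rpsa and Rpl14 stood at -0.34 and -0.32 in the authors' deposited table. At the other end Rps12, Rps28 and Rps29 were at -0.01 each in the authors' deposited table. Such genes have many near-identical pseudogenes, and the treatment of shared reads by the authors' counting is not stated in the labels.

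Translation factors had 32 of 36 listed members below the median of all genes. Eif5a, an elongation factor (47.3% of group 1, 54.9% of group 2), the ribosomal scaffold gene Rack1 and the elongation factor gene Eef1a1 stood at -0.32, -0.32 and -0.30 in the authors' deposited table. Proteasome genes were as uniform: 31 of 33 lay below the median of all genes, and all 33 were detected less often in group 1. In the authors' deposited table they ranged between -0.22 (Psma7) and -0.02 (Psmc5). Genes of folding and export in the endoplasmic reticulum had 23 of 28 below it, led by the chaperone gene Calr at -0.28 and the translocon gene Ssr2 at -0.23 in the authors' deposited table. The chaperone gene Hspa5, a main marker of the unfolded protein response, was at 0.01 and was detected in 62.0% of group 1 cells and 58.5% of group 2 cells in the authors' deposited table.

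Nuclear genes of oxidative phosphorylation had low fold changes in each complex. Of 79 listed genes, 67 lay below the median of all genes, and only Atp5g1 passed the limit at -0.26 in the authors' deposited table. List medians were -0.09 for complex I, -0.12 for complex III, -0.08 for complex IV and -0.15 for ATP synthase, and all 4 listed genes of complex II were below the median of all genes. By detection complex IV turned to the other side: 5 of its 13 genes were higher and 7 lower in group 1, and its median difference lay 1.2 points above that of all genes. Cyc1, cytochrome c1 of complex III, was detected in 54.2% of group 1 cells and 59.4% of group 2 cells at -0.24 in the authors' deposited table. Cox7a1 was the furthest exception at 0.14, with 37.4% of group 1 cells and 31.4% of group 2 cells, in the authors' deposited table. Mitochondrial ribosome genes had 30 of 36 below the median of all genes, but their list median of -0.06 lay above the zero point taken from widely detected genes, so the side of the list depended on that choice. The same held for the list median of V-type ATPase genes, 9 of 11 of which lay below the median of all genes.

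Mitochondrially encoded transcripts split within 1 genome. The ribosomal RNAs mt-Rnr1 and mt-Rnr2 were at 0.18 and 0.17 and the oxidase subunit mt-Co1 at 0.26 in the authors' deposited table. The messenger RNAs mt-Nd1, mt-Atp6, mt-Co3, mt-Nd2 and mt-Cytb stood at -0.32, -0.21, -0.15, -0.15 and -0.14 in the authors' deposited table. Detection differed by at most 3.1 points: mt-Co1 was found in 90.8% of group 1 cells and 89.0% of group 2 cells, and mt-Nd1 in 93.2% and 93.8%, in the authors' deposited table. These transcripts are cut from long shared precursors, and mt-Nd1 and its neighbour mt-Rnr2 lay on opposite sides of 0.

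**Figure D3:**
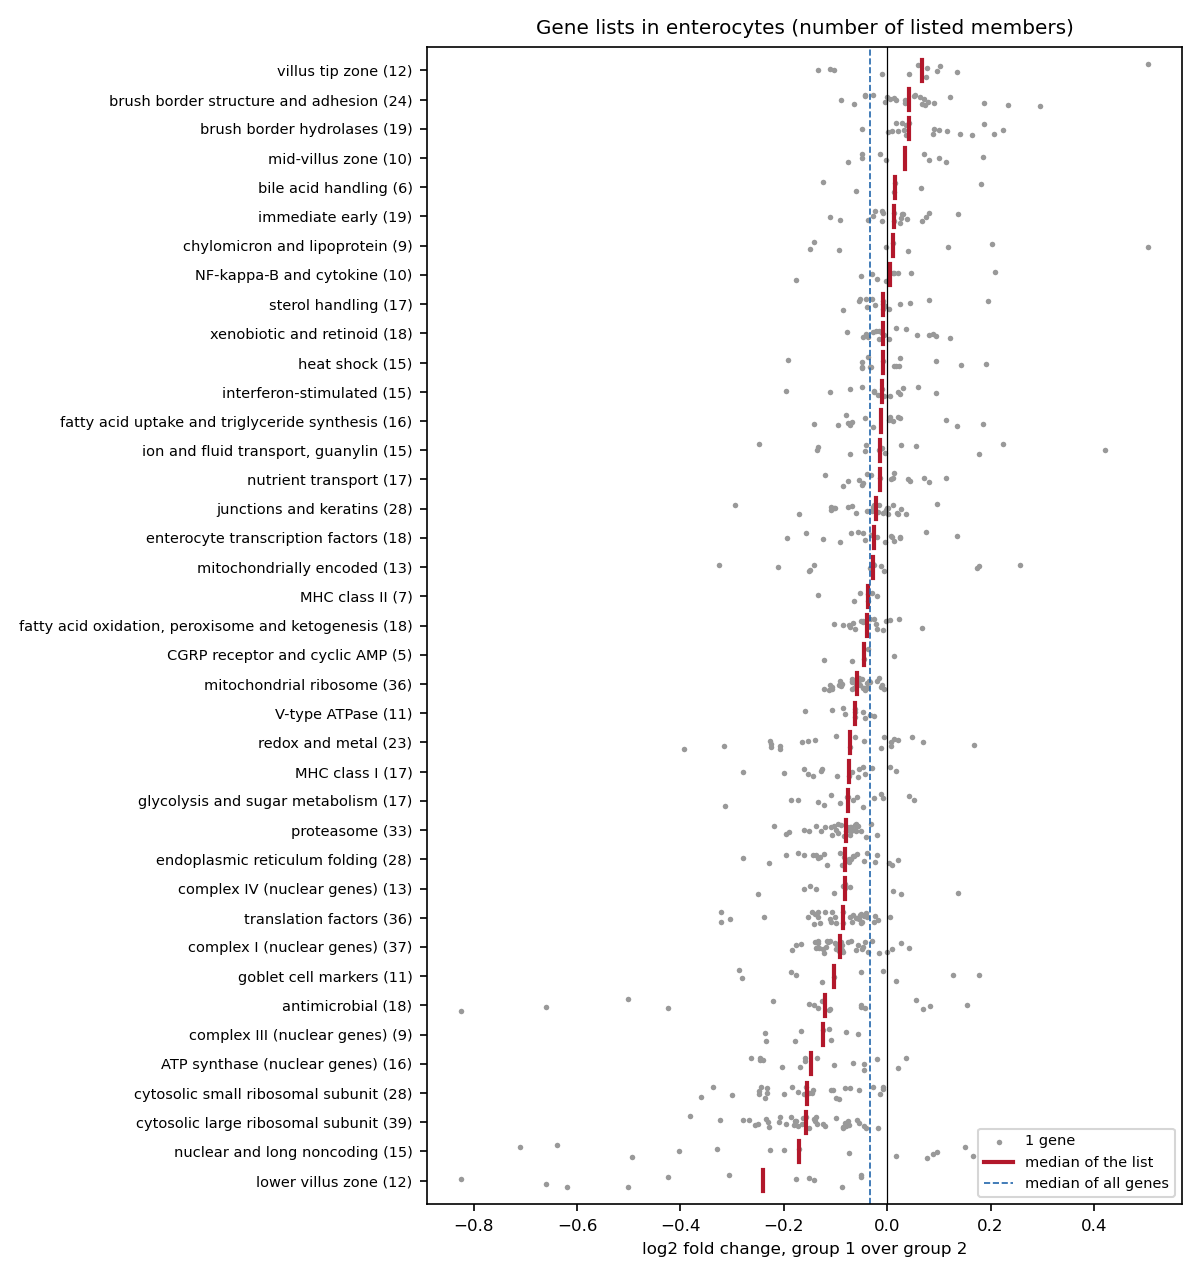
Each grey point is 1 listed gene at its deposited log2 fold change (group 1 over group 2, x axis), in 39 lists of at least 5 listed genes (rows, with the number of genes); red bars are list medians and the dashed line is the median of all genes at -0.03. Brush border, hydrolase and villus tip lists lie right of it, and ribosomal, ATP synthase, complex III and lower villus lists left of it.

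Redox and sugar metabolism held some of the larger single values. The metallothionein gene Mt1 was detected in 16.5% of group 1 cells and 29.2% of group 2 cells at -0.39 in the authors' deposited table. Gpx2, the epithelial glutathione peroxidase, and Ldha, lactate dehydrogenase, were at -0.32 and -0.31, and Ldha was detected in 72.1% of both groups, in the authors' deposited table. The ferritin gene Fth1 was at -0.22 although found in 82.0% of group 1 cells and 78.8% of group 2 cells in the authors' deposited table. On the high side stood Selenop, the selenium transport protein, at 0.17 in the authors' deposited table. As lists, redox and metal genes had 14 of 23 and glycolysis genes 12 of 17 listed genes below the overall median, and fatty acid oxidation genes 9 of 18. Xenobiotic and retinoid genes had 14 of 18 above it, with the retinol binding protein gene Rbp2 at 0.12 and the cytochrome gene Cyp2d26 at 0.09 in the authors' deposited table.

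Transcription factors of the enterocyte differed little. The intestinal factor genes Cdx2 (17.6% of group 1, 26.7% of group 2) and Cdx1 (25.5% and 31.1%) were lowest at -0.19 and -0.16 in the authors' deposited table. Hnf4a and Hnf4g, which maintain absorptive genes, stood at -0.05 and -0.04 in the authors' deposited table. Creb3l3 and Klf4 were the highest at 0.13 and 0.08 in the authors' deposited table. Of 18 listed factors 10 lay above the median of all genes. Junction and keratin genes had 18 of 28 above it, and Krt19 was the only member past the limit, at -0.29 (80.5% of group 1, 86.1% of group 2), in the authors' deposited table. In the list for the receptor of the nociceptor peptide CGRP and cyclic AMP, 5 of 19 genes were listed and neither receptor subunit was among them. Gnas, the stimulatory G protein gene, was the lowest of these at -0.12 in the authors' deposited table.

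Some goblet cell markers were widely detected in the enterocyte sheet, and their detection was mostly lower in group 1, as was that of most genes. Without Guca2a, 10 of 32 goblet cell markers were listed, 7 of them below the median of all genes. Of the 10, 8 were detected less often in group 1, near the 72.3% of all genes. Their detection shares summed to 362.5 points in group 1 and 425.9 points in group 2. Tff3, a trefoil peptide gene of goblet cells, was found in 74.7% of group 1 cells and 83.8% of group 2 cells at -0.19 in the authors' deposited table, which is wider detection than that of Fabp2 or Alpi. Spink4 was found in 50.2% of group 1 cells and 64.7% of group 2 cells, Agr2 in 30.8% and 45.6%, and Muc2, the main secreted mucin, in 30.3% and 35.8%, in the authors' deposited table. The defining Paneth cell genes Lyz1, Defa17 and Mmp7 were not listed, and Defa24 was found in 21.5% and 26.3% in the authors' deposited table. Of the defining tuft cell genes, Dclk1 and Trpm5 were not listed, and 2 of 30 enteroendocrine markers were. The stem cell markers Lgr5 and Olfm4 were each under 14% in both groups, and all 4 listed proliferation genes lay below the median of all genes, led by Ptma at -0.28 (20.4% of group 1, 31.5% of group 2) in the authors' deposited table. The part of other cell types or of their free RNA in the low groups was not tested.

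Differences in detection of at least 10 percentage points were found in 10 genes higher in group 1 (0.292% of all) and 25 genes lower in group 1 (0.73%). The widest gain was that of Selenop, found in 59.0% of group 1 cells and 44.6% of group 2 cells in the authors' deposited table. It was followed by Guca2b, Pmp22, Apoc3, Cgref1, Alpi, Fabp2, Ces2a, Clca4a and the phosphate transporter gene Slc34a2 (58.5% of group 1, 48.5% of group 2) in the authors' deposited table. The widest drop among named genes was that of Faxc, found in 48.3% of group 1 cells and 68.1% of group 2 cells in the authors' deposited table. Safb, Arhgap24, Mkl1, Itga9, Zc3h7a, Dmbt1, Agr2, Spink4 and Lgals2 followed, with drops of between 18.5 and 13.6 points. Predicted gene models and genes under the median detection were left out of this ranking. Among those left out, the drop of Gm16083 (61.7% of group 1, 81.0% of group 2) lay between those of Faxc and Safb in the authors' deposited table. Fold change and detection mostly pointed one way. Of all genes, 224 had a fold change below 0 and a higher detection in group 1, and 46 had the opposite pairing.

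**Figure D4:**
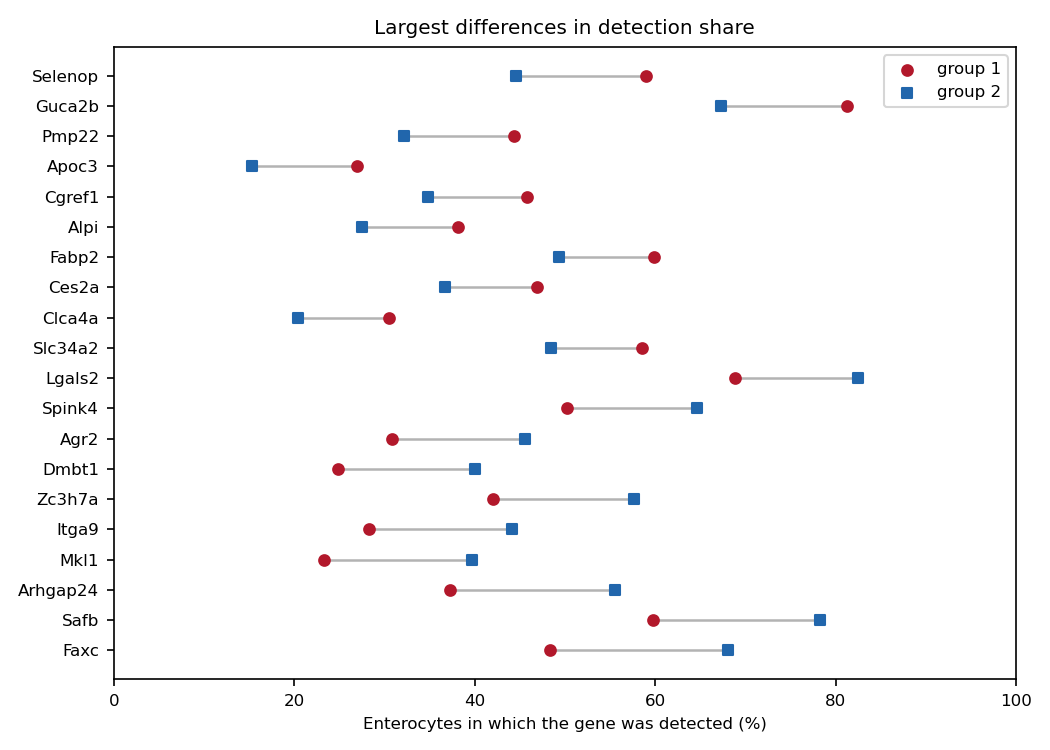
For the 10 genes with the largest gain and the 10 with the largest drop in detection, red circles give the percentage of group 1 enterocytes and blue squares the percentage of group 2 enterocytes in which the gene was detected (x axis). Predicted gene models and genes under the median detection were left out of the ranking. Selenop leads the gains at 59.0% in group 1 and 44.6% in group 2, and Faxc the drops at 48.3% and 68.1%.

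Several of the lowest genes belonged to no absorptive programme. Itga9, an integrin subunit (chr9:118606709-118901003), was found in 28.3% of group 1 cells and 44.1% of group 2 cells at -0.70 in the authors' deposited table. Zc3h7a, a zinc finger gene (chr16:11136594-11176393), was found in 42.0% and 57.7% at -0.71 in the authors' deposited table. Cdk8, a kinase of the Mediator complex (chr5:146230795-146302874), was found in 54.6% and 63.1% at -0.64 in the authors' deposited table. Safb, a nuclear scaffold protein gene, and Arhgap24, which encodes a GTPase-activating protein, stood at -0.49 and -0.50 in the authors' deposited table. The long noncoding RNA Gm16083 (chr1:130515048-130557059), a predicted gene named here after its value was seen, was found in 61.7% of group 1 cells and 81.0% of group 2 cells at -0.72 in the authors' deposited table. A list of nuclear and long noncoding transcripts, put together partly from genes already seen to be low, had 9 of 15 listed members below the overall median and a list median of -0.17.

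The other sheets came from the same pair of pools, so their values are set side by side and are no independent repeat. Nor is the order of the groups stated to be the same in each. Reg3g stood at -0.82 (enterocyte), -0.81 (stem), -0.60 (goblet), -0.26 (enteroendocrine) and -1.78 (tuft) in the authors' deposited tables. Apoa1 was at 0.50, 0.56, 1.29, -0.36 and 1.59 in the same order of the authors' deposited tables. Among brush border genes, Cdhr2 was at 0.04 (stem), 0.12 (goblet), 0.21 (enteroendocrine) and 0.31 (tuft) in the authors' deposited tables. Mep1a was at 0.07, 0.14, 0.10 and 0.22, and Muc3 at -0.02, 0.30, -0.08 and 0.22, in that order of the authors' deposited tables. Zc3h7a and Itga9, low in enterocytes, were at -0.02 and -0.12 in stem cells and at 0.05 and 0.01 in goblet cells in the authors' deposited tables. The same tables put them at -0.19 and -0.35 in enteroendocrine cells and at -0.28 and 0.16 in tuft cells. Detection of Itga9 was 26.8% in group 1 and 35.4% in group 2 of stem cells, and 23.6% and 29.9% of goblet cells. Faxc, Safb, Arhgap24 and Gmds, an enzyme gene of fucose synthesis, were below 0 in every sheet of the authors' deposited tables. None of these differences between cell types was tested. The numbers of cells behind the sheets are unknown, and with them the counting error, which bears most on rare types such as tuft and enteroendocrine cells.

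**Figure D5:**
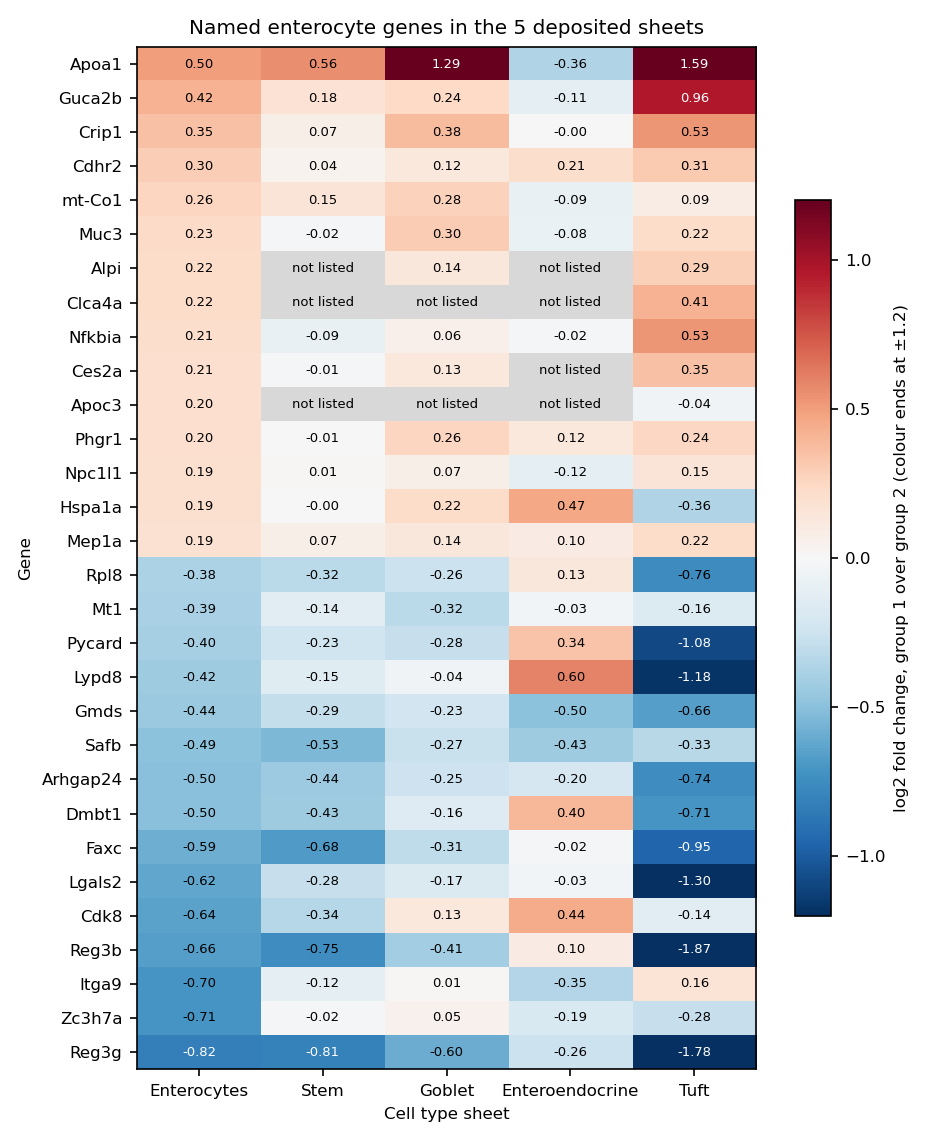
Rows are the 15 highest and 15 lowest named enterocyte genes, columns the 5 deposited cell type sheets, and each cell gives the deposited log2 fold change of group 1 over group 2 (red higher, blue lower in group 1; grey where the gene is not listed). Reg3g is below 0 in each column, while Zc3h7a is at -0.71 in enterocytes, -0.02 in stem cells and -0.28 in tuft cells.

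Some lists that lay high or low also differed in detection between enterocytes and stem cells. The enterocyte shares come from the same cells as the fold changes, and the brush border and hydrolase lists were made of enterocyte genes. These shares are therefore no independent evidence, and their link to the fold changes was not tested. Of the 3056 genes shared with the stem cell sheet, 66.3% were detected more often in stem cells in both groups and 22.2% more often in enterocytes in both groups. All 67 ribosomal protein genes, all 36 translation factor genes, all 33 proteasome genes and all 36 mitochondrial ribosome genes were detected more often in stem cells. All 22 shared genes of brush border structure and all 13 shared hydrolase genes were detected more often in enterocytes. Lower villus genes were mixed, with 7 of 11 shared genes more frequent in stem cells. In the authors' deposited tables Mt1 was found in 69.4% of group 1 and 72.7% of group 2 stem cells, against 16.5% and 29.2% of enterocytes. All 15 heat shock genes were also detected more often in stem cells, and 9 of them lay above the median of all genes in enterocytes. Of the low nuclear and long noncoding list, 8 of 14 shared genes were detected more often in enterocytes and 5 more often in stem cells, and of the antimicrobial list 7 of 15 and 5 of 15. Depth per cell is not stated for either sheet, and its part in these shares was not tested.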

How the data were processed

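Per the labels, 1 sample of pooled cells was sequenced per genotype (3 mice each), and tools named in the submitters' processing notes are DESeq2 1.30.1, Seurat and Cell Ranger, with build mm10. The authors deposited 1 sheet per cell type; per the file headers each gives a log2 fold change, the fraction of cells of either group with the gene, and p-values. With 1 sample per genotype the deposited p-values cannot measure spread between animals and were not used. Filters on cells, doublet treatment and the offset behind the fold changes are not given in the sources used here; an offset compresses the fold changes of weakly detected genes. The deposited fractions are printed as percentages.

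Medians, counts and differences were computed with Python 3.11.15 and pandas 2.3.3, after a check on simulated data. Genes were named by rule: the 15 highest and 15 lowest fold changes among genes that reached the median detection, leaving out predicted models, the 10 largest gains and drops in detection, and up to 4 members at each end of each of 51 lists; any member of the lipoprotein, bile acid, brush border, hydrolase and transport lists could also be named. The 39 lists with at least 5 listed genes were described. Genes named outside the rule after their values were seen are 2010109I03Rik, 4933405D12Rik, Gm16083, Saa1, Plac8, Reg3a, Dgat1, Mogat2, Fdft1, Hnf4a, Hnf4g, Muc2, Sprr2a2, mt-Cytb, Golga4 and Ctdspl. Members and lists were chosen with earlier results of these data known. "Like detection" compares a gene with the median of its range of mean detection (under 20%, 20 to 40%, 40 to 60%, 60 to 80%, 80 to 95%, 95% and over). Positions come from RefSeq's GRCm38.p6 table, which matched 3359 of 3426 genes. Cluster markers were not used. A few listed genes are not reported here.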

Additional observations from a re-analysis of the deposited data

Results flagged for a closer look

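Some genes past the limit of 0.25 in enterocytes passed it in the opposite direction in another cell type sheet. Only genes named for their fold change or detection, and the enterocyte markers, were compared in this way. Other genes past the limit were not, and the difference between cell types was not tested. All 5 cases found among the compared genes involved enteroendocrine cells. In the authors' deposited tables Apoa1 was at 0.50 in enterocytes and -0.36 in enteroendocrine cells. Lypd8 was at -0.42 in enterocytes and 0.60 in enteroendocrine cells, and Dmbt1 at -0.50 and 0.40, in the authors' deposited tables. Cdk8 was at -0.64 in enterocytes and 0.44 in enteroendocrine cells, and Pycard at -0.40 and 0.34, in the authors' deposited tables. Detection of Dmbt1 in enteroendocrine cells was 11.8% in group 1 and 2.5% in group 2 in the authors' deposited table. There, detection also went with the fold change for Apoa1 (82.4% and 92.5%) and Pycard (44.1% and 40%). It went against the fold change for Cdk8 (50% and 65%) and Lypd8 (73.5% and 75%). For Cdk8 and Lypd8 the opposite direction thus held for fold change only. The number of enteroendocrine cells is unknown and they are a rare type, so these values may rest on few cells. Whether the groups are in the same order in both sheets is not stated.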

How the results depend on the processing

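No paired analysis was possible because each genotype had 1 sample. The counts of genes past the limit depended on the zero point and on the limit. With the median of all genes as zero, 11 genes were past the limit on the high side and 36 on the low side. With the median of widely detected genes (70% or more in each group) as zero, 19 were higher and 27 lower. A limit of 0.15 gave 33 higher and 212 lower, and one of 0.4 gave 3 higher and 14 lower. A detection limit of 5 points gave 92 genes higher and 322 lower. List medians set against the median of all genes changed side, among lists with at least 75% of members on one side, in 6 settings over 5 lists; the cause was not tested. Antimicrobial genes did so by detection (1.5 points) and without genes shared between lists (0.040), and complex IV genes by detection (1.2 points). With widely detected genes as zero, the CGRP, mitochondrial ribosome and V-type ATPase lists were at 0.024, 0.010 and 0.0062. Of the other values of lists and single genes under an alternative, 314 stayed within a log2 difference of 0.05 or on their side and 55 moved without a called list changing side. Weak detection limits what the deposited fold changes can show, and depth behind them is unknown. Comparison with genes of like detection was added after the data were seen. By it, fewer members were low for ATP synthase (10 of 16), endoplasmic reticulum folding (20 of 28) and class I genes (12 of 17). Low members also fell to 10 of 17 for glycolysis and 3 of 7 for class II genes. Complex III genes stayed at 9 of 9 and proteasome genes at 31 of 33. Among hydrolase genes 19 of 19 were higher.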

Other observations

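Nav1.8 is encoded by Scn10a (chr9:119608456-119719322, GRCm38), which was not listed in enterocytes. Within 5 Mb of its start, 26 listed genes had a median fold change of -0.02, against -0.04 for the 184 listed genes of chromosome 9. Of the 26 genes, 3 passed the limit, namely Itga9, Rpsa and Rpl14, all on the low side, where 1.55% of all listed genes passed it. The last pair are ribosomal protein genes. Itga9 starts 1.00 Mb from Scn10a, and the authors' deposited table put its nearest listed neighbours, Golga4 and Ctdspl, at -0.02 and -0.0054. The part of position in the value of Itga9 was not tested.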
